A study of Mus musculus with 8 samples.

Results

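The genes described here are 10 genes of the bone marrow niche stroma: Cxcl12, Kitl, Angpt1, Il7, Vcam1, Lepr, Foxc1, Ebf3, Adipoq and Grem1. They were chosen by name, as factors and markers of marrow reticular cells, and each matched 1 of the 55421 gene identifiers in the deposited table through GENCODE M21. RNA was sequenced from mouse bone marrow derived macrophages (BMDMs), primary cells grown out of marrow, at day 7 of macrophage differentiation. The 4 wild-type (WT) libraries were compared with 4 libraries labelled Baf60a knockout (KO). Baf60a is the product of Smarcd1, a subunit of SWI/SNF chromatin remodelling complexes. The sources used here give neither the deleted part of the gene, nor the promoter of any Cre, nor the age of the mice. Nor do they tie each library to its own mouse or culture, so every p-value rests on library-to-library spread, which may be technical.

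In the marrow, reticular stromal cells around blood vessels secrete the factors that hold and feed haematopoietic stem and progenitor cells. CXCL12 attracts and retains cells that carry CXCR4, the ligand encoded by Kitl binds the receptor KIT, IL-7 feeds early lymphoid cells, and angiopoietin-1 binds TIE2, encoded by Tek. These stromal cells are commonly recognised by the leptin receptor (Lepr) and Adipoq, and their identity depends on the transcription factors FOXC1 and EBF3. Macrophages are not the textbook source of these genes, and marrow cultures can hold adherent stromal cells beside macrophages.

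All 10 genes had a value above 0 in all 8 libraries, but their levels spanned from above 200 TPM to below 1. TPM, a transcript's share of the RNA of its library, is corrected for transcript length, so levels of different genes can be set side by side. Lepr was the only member below TPM 1, and it was below it in all 8 libraries; the other 9 were above TPM 1 in every library. Cxcl12 was the most abundant by far, and its lowest value, 210 TPM, lay above the highest value of Vcam1, 19.6 TPM. By mean level the order was Cxcl12, Vcam1, Grem1, Kitl, Foxc1, Ebf3, Il7, Adipoq, Angpt1 and Lepr. Ranges of neighbours in this order were apart between Cxcl12 and Vcam1, Foxc1 and Ebf3, and Angpt1 and Lepr. The other neighbours overlapped: Grem1 exceeded Kitl in 5 of 8 libraries, Ebf3 exceeded Il7 in 5 of 8 and Il7 exceeded Adipoq in 6 of 8. Vcam1 above Grem1, Kitl above Foxc1 and Adipoq above Angpt1 held in 8 of 8 libraries although their ranges overlapped. Among the 13933 genes tested, Cxcl12 ranked 616 by mean level, Vcam1 6485 and Angpt1 13308.

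**Figure D1:**
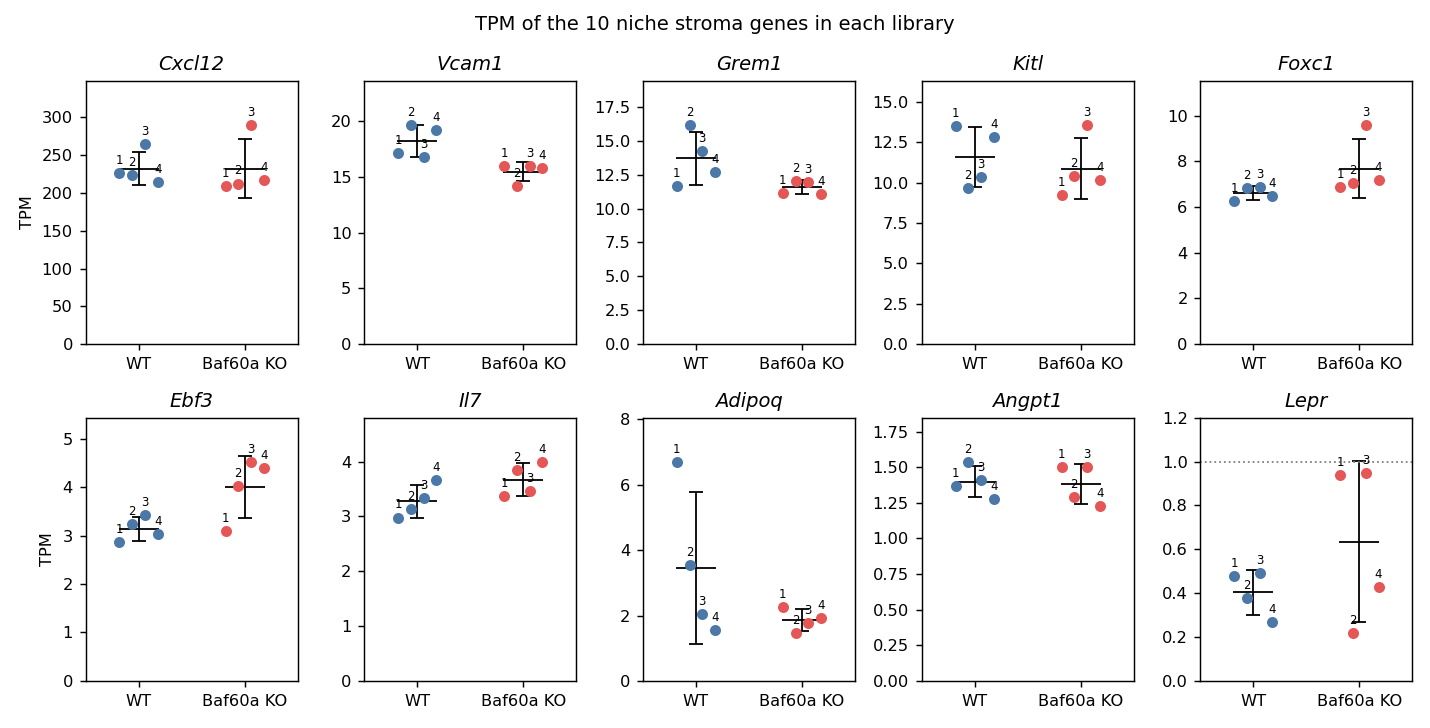
TPM (vertical axes, from 0) of each of the 10 genes in the WT (blue) and Baf60a KO (red) libraries, numbered by replicate; horizontal bars are group means and error bars 1 SD (n = 4). Only the Vcam1 values separate the groups, and every Lepr value lies below the dotted line at TPM 1.

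None of the 9 tested members changed between WT and Baf60a KO libraries at an adjusted p under 0.05 (limma on log2(TPM + 1), Benjamini-Hochberg over all genes tested). At an unadjusted p under 0.05 the count was 3 of 9 (Vcam1, Grem1 and Ebf3), and 22.3% of all genes tested passed that mark. In the same fit 5.61% of genes tested were called, 4.40% as higher and 1.21% as lower in Baf60a KO. Fold changes of the members, given throughout as KO minus WT on the log2(TPM + 1) scale, ran from -0.52 (Adipoq) to 0.27 (Ebf3). Their median was -0.01, beside 0.03 over all genes tested, with 3 members above 0 and 6 below. The TPM values of the groups did not overlap for 1 of the 9, Vcam1, and for 15.8% of all genes tested. A share of 1 in 9 lies near that background.

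Smarcd1 itself, read as a check of the labels, was 14.0 to 16.3 TPM in WT and 9.91 to 10.9 in KO (log2 fold change -0.47, limma adjusted p = 0.00756), so its transcript was lower but present. Each library listed 13727 to 14027 genes above TPM 1. WT replicates 3 and 4 stood apart by processed pseudogenes, at 12.0% and 12.3% of TPM against 6.78% to 8.38% in the other libraries. Macrophage markers were abundant everywhere: the sum of 10 such genes was 5872 to 6833 TPM in WT and 4392 to 4733 in KO. Lyz2 (lysozyme), the most abundant of them, fell (log2 fold change -1.05, limma adjusted p = 0.000195) and carried the lower sum. Of the other 9 markers, 8 had higher means in KO and 1 lower (Mrc1). Without Lyz2, a count made after seeing the data, the sums were 2081 to 2523 TPM in WT and 2583 to 2687 in KO. Most of these sums was Cd68, at 1322 to 1662 TPM in WT and 1742 to 1823 in KO. Fibroblast markers were abundant too: the sum of 20 such genes was 8034 to 8904 TPM in WT and 9426 to 9888 in KO, so the groups did not overlap. In bulk cultures such as these, fewer cells of a type and less RNA per cell cannot be told apart.

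**Figure D2:**
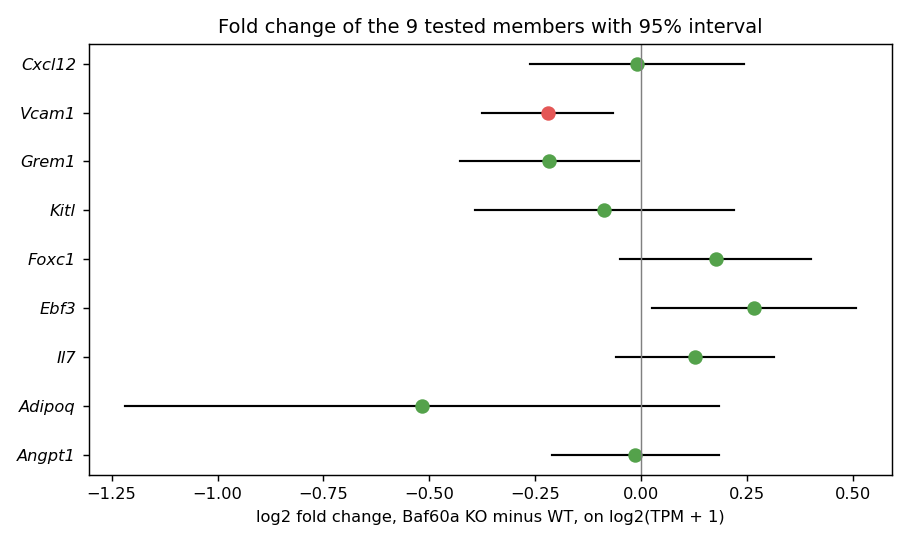
Log2 fold change (Baf60a KO minus WT on log2(TPM + 1), horizontal axis) of the 9 tested genes, with 95% intervals from limma as lines; red marks the gene whose groups did not overlap in TPM. The intervals of Vcam1, Grem1 and Ebf3 lie on one side of 0 before adjustment, and that of Adipoq is the widest, from -1.22 to 0.18.

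The promoters of the most abundant member and of the member that varied most between libraries are shown first, because they differ in base composition. Each is the 250 bases before the annotated start, from RefSeq on GRCm38.p6, the build of the deposited values, and capitals mark the GC box GGGCGG on either strand. Cxcl12 lies at chr6:117168285-117168534 and Adipoq at chr16:23146286-23146535, both on the plus strand.
Cxcl12: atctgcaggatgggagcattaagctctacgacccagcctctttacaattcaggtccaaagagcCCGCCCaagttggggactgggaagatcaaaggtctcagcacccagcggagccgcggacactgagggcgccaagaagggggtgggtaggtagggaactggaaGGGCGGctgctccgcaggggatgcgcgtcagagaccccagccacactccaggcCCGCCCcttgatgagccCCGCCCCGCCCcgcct
Adipoq: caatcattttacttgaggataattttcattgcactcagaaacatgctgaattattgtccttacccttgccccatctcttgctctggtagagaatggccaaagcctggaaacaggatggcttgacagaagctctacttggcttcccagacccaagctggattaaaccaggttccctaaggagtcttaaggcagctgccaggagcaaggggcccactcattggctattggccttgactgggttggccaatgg
The Cxcl12 window is 64.4% G or C with 5 GC boxes, and the Adipoq window is 48.8% G or C with 0; the median over all windows is 52.4%. RefSeq windows matched 7 of the 10 members, and 6 of these 7 hold at least 1 GC box (overlapping matches counted), against 32.7% of the 32851 windows of all genes. The first count is per gene, where a box in any window is enough, and the share is per window. Kitl, Ebf3 and Grem1 have 3 each and Foxc1 has 1. Lepr has 1 in only 1 of its 2 windows. The letters TCCCNNGGGA, an EBF motif, and TGTTTAC, a forkhead motif, were searched on both strands and occur in 0 of the 8 windows of members, against 0.779% and 3.17% of all windows. TATAAA occurs once, in Kitl, against 12.4% of all windows.

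Cxcl12 (chromosome 6, 117168535 to 117181367, plus strand, GRCm38) encodes the chemokine that keeps stem and progenitor cells in the marrow. It was 227, 224, 265 and 214 TPM in WT replicates 1 to 4. In Baf60a KO replicates 1 to 4 it was 210, 213, 290.2 and 217 TPM. The means were 232 ± 22.3 (SD, n = 4) and 232 ± 38.7, the groups overlapped, and the highest library of each group was replicate 3. The log2 fold change was -0.01 (SE 0.11, 95% interval -0.26 to 0.24; limma adjusted p = 0.979). The interval corresponds to KO levels of 0.834 to 1.18 times WT, so larger shifts lie outside it. Without KO replicate 3 the value was -0.12 (adjusted p = 0.438), and without WT replicate 3 it was 0.06 (adjusted p = 0.831).

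Kitl (chromosome 10, 100015630 to 100100416, plus strand), which encodes stem cell factor, varied more within the groups than the group means differed. It was 13.5, 9.66, 10.3 and 12.8 TPM in WT replicates 1 to 4, and 9.25, 10.4, 13.6 and 10.2 TPM in the KO replicates. The highest value, in KO replicate 3, and the next, in WT replicate 1, nearly met. Means were 11.6 ± 1.88 and 10.9 ± 1.88 TPM (SD, n = 4; log2 fold change -0.09, SE 0.13, 95% interval -0.39 to 0.22, limma adjusted p = 0.775). Single libraries moved this value: it was -0.19 without KO replicate 3, -0.16 without WT replicate 2 and -0.13 without WT replicate 3. It was -0.01 without WT replicate 1, -0.04 without WT replicate 4 and -0.02 without KO replicate 1.

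Il7 (chromosome 3, 7569994 to 7613760, minus strand), a growth factor of early lymphoid cells, was 2.98, 3.13, 3.33 and 3.67 TPM in WT. In KO it was 3.37, 3.85, 3.47 and 4.0 TPM, and the ranges overlapped. The log2 fold change was 0.13 (SE 0.08, 95% interval -0.06 to 0.31; limma adjusted p = 0.407). An antisense gene, Gm16685, overlaps its start and was listed at 0.13 to 0.56 TPM; strand use in the quantification is not given in the sources used here. With WT replicates 3 and 4 both left out, the Il7 value was 0.20 (adjusted p = 0.235).

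Angpt1 (chromosome 15, 42424723 to 42676977, minus strand), the ligand of TIE2, stayed close to TPM 1. It was 1.37, 1.54, 1.41 and 1.28 TPM in WT and 1.5, 1.29, 1.5 and 1.23 in KO. Means were 1.40 ± 0.108 and 1.38 ± 0.141 (log2 fold change -0.01, SE 0.09, 95% interval -0.21 to 0.19, limma adjusted p = 0.958). Near this level the log2(TPM + 1) scale understates a change.

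Vcam1 (chromosome 3, 116109949 to 116129688, minus strand) encodes an adhesion molecule that binds integrins on blood cells, and it is carried by both stromal cells and some marrow macrophages. It was 17.1, 19.6, 16.8 and 19.2 TPM in WT. In KO it was 16.0, 14.2, 15.9 and 15.8 TPM. Every KO value lay below every WT value, by the smallest margin between WT replicate 3 and KO replicate 1. Means were 18.2 ± 1.45 and 15.5 ± 0.866 TPM (SD, n = 4), a ratio of 0.850. The log2 fold change was -0.22 (SE 0.07, 95% interval -0.38 to -0.07) with a limma adjusted p of 0.0985, short of the threshold. After median-of-ratios scaling of the same TPM values the fold change was -0.26 with an adjusted p of 0.0445; over all alternatives the adjusted p ran from 0.0445 to 0.217.

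Lepr (chromosome 4, 101717404 to 101815352, plus strand), the receptor by which marrow reticular cells are often traced, did not enter the fit because it was below TPM 1 throughout. It was listed at 0.48, 0.38, 0.49 and 0.27 TPM in WT and at 0.94, 0.22, 0.95 and 0.43 in KO. KO replicates 1 and 3 were above all WT libraries, KO replicate 2 was the lowest of all, and the groups overlapped. The exact two-sided permutation test of the 2 group means of log2(TPM + 1) gave p = 0.371 (difference 0.19, 70 permutations, smallest possible p 0.0286). The deposited values carry no read numbers, so the counting error of values this low is unknown.

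Foxc1 (chromosome 13, 31806633 to 31812476, plus strand), a forkhead factor needed for the reticular cells of the niche, was 6.25, 6.84, 6.89 and 6.48 TPM in WT. It was 6.88, 7.03, 9.59 and 7.17 TPM in KO, where replicate 3 stood above the other libraries and replicate 1 lay within the WT range. The log2 fold change was 0.18 (SE 0.10, 95% interval -0.05 to 0.40; limma adjusted p = 0.338). Without KO replicate 3 it was 0.08 (adjusted p = 0.593).

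Ebf3 (chromosome 7, 137193673 to 137314445, minus strand), the early B cell factor that keeps these cells from turning into bone cells, had the highest positive fold change of the members. It was 2.87, 3.24, 3.43 and 3.03 TPM in WT. It was 3.1, 4.02, 4.53 and 4.39 TPM in KO, so 3 KO libraries lay above WT and replicate 1 lay inside the WT range. Means were 3.14 ± 0.244 and 4.01 ± 0.644 TPM (log2 fold change 0.27, SE 0.11, 95% interval 0.03 to 0.51, limma adjusted p = 0.181). Leaving out KO replicate 1 gave 0.36 (adjusted p = 0.0764). Of its paralogs, Ebf1 was listed at 11.9 TPM in both group means and Ebf2 was below TPM 1 in all libraries.

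Grem1 (chromosome 2, 113746164 to 113758646, minus strand) encodes gremlin 1, a secreted antagonist of BMPs. It was 11.7, 16.2, 14.2 and 12.7 TPM in WT and 11.2, 12.0, 12.0 and 11.1 in KO. WT replicate 1 lay inside the KO range, and the other WT libraries lay above it. Means were 13.7 ± 1.96 and 11.6 ± 0.51 TPM (SD, n = 4; log2 fold change -0.22, SE 0.09, 95% interval -0.43 to -0.01, limma adjusted p = 0.212). The value was -0.14 without WT replicate 2 (adjusted p = 0.327).

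Adipoq (chromosome 16, 23146536 to 23158028, plus strand) encodes the adipocyte hormone adiponectin and is also transcribed in Lepr-bearing marrow stroma. Its values were 6.71, 3.54, 2.06 and 1.55 TPM in WT and 2.27, 1.47, 1.76 and 1.92 in KO. WT replicates 1 and 2 were above every KO library and WT replicates 3 and 4 lay within the KO range. It varied most of the 10 genes, with a coefficient of variation of 66.2% over the 8 libraries. Lepr, below TPM 1, came next with 53.6%, where Cxcl12 had 12.6% and Grem1 13.8%. Means were 3.47 ± 2.32 and 1.86 ± 0.334 TPM (SD, n = 4), with a log2 fold change of -0.52 (SE 0.31, 95% interval -1.22 to 0.18; limma adjusted p = 0.370). The value was -0.21 without WT replicate 1 (adjusted p = 0.559) and was -1.06 with WT replicates 3 and 4 both left out (adjusted p = 0.0519).

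Adipoq was not alone in its high value in WT replicate 1. Of 9 adipocyte markers, 7 were highest in that library. Of the 6 tested, 4 were, whereas 15.6% of all genes tested had their maximum there. Over the median of the other libraries, the value there was 3.50 for Adipoq and 5.93 for Lep (leptin). It was 4.10 for Cidec and 3.46 for Plin1, both lipid droplet proteins. Fabp4, which macrophages also express, was 1.24 times that median, and Pparg and Plin4 were highest in KO replicate 3. All 4 globin genes were highest in the same library, with Hbb-bs at 6.13 and Hba-a1 at 7.77 times the median of the others. Of the fibroblast markers, Dcn (2.10 times) and Lum (2.64 times, below TPM 1) were highest there too. Among the 19 fibroblast markers tested, Dcn was the only 1. No adipocyte marker of the 6 tested was called (limma), and the sum of the 9 was 530 to 681 TPM in WT and 499 to 555.0 in KO, most of it Fabp4. What part other cells had in the Adipoq values was not tested.

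**Figure D3:**
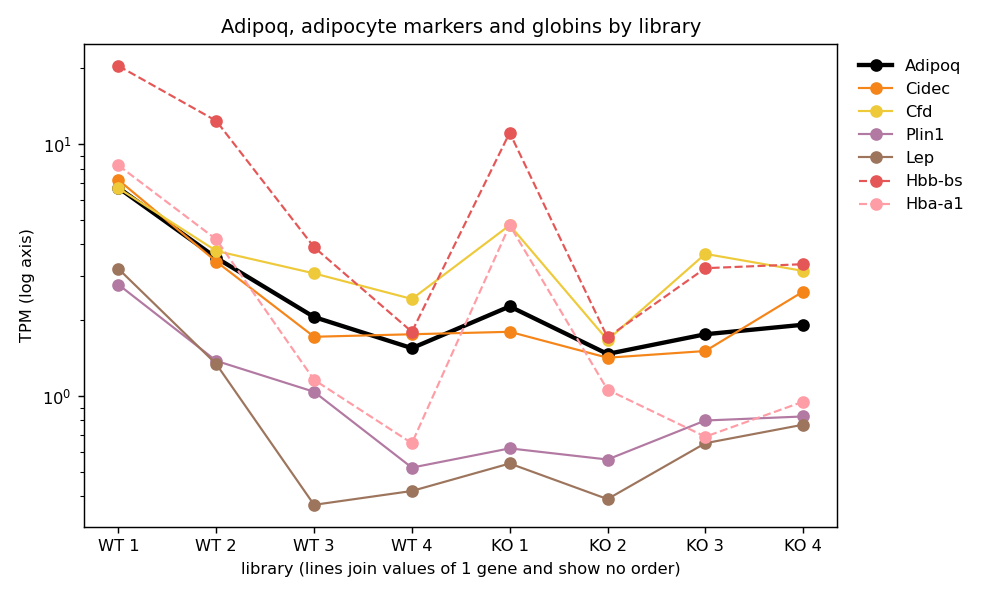
TPM (log axis) of Adipoq, 4 adipocyte markers and 2 globins in each of the 8 libraries; lines join the values of 1 gene and show no order. All 7 genes are highest in WT replicate 1, where Adipoq is 6.71 TPM. In KO replicate 1 the globins (Hbb-bs 11.1 and Hba-a1 4.77 TPM) and Cfd (4.77 TPM) have a further high value. Adipoq, at 2.27 TPM, also has its highest KO value there.

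Across the members, KO replicate 3 was the library with the most maxima. Of the tested members, Cxcl12, Kitl, Foxc1 and Ebf3 were highest there, whereas 15.8% of all genes tested had their maximum in that library. With Lepr, which was not tested, the count was 5 of 10 members. Lepr was 0.95 TPM there beside 0.94 in KO replicate 1, and Kitl 13.58 beside 13.51 in WT replicate 1, so these maxima were narrow. Vcam1, Grem1 and Angpt1 were highest in WT replicate 2, Adipoq in WT replicate 1 and Il7 in KO replicate 4. In the stromal gene lists, 9 of 16 tested marrow reticular markers, 9 of 19 fibroblast markers and 6 of 13 stromal transcription factors were highest in KO replicate 3. For other niche factors the count was 2 of 16. In this library the BMP ligand Bmp4, named after its values were seen, was 22.9 TPM, against 7.01 to 16.5 in the others. Alpl, an osteoblast phosphatase, was 4.98 TPM against 1.58 to 2.86. Runx2, the other osteoblast marker tested, was not high there, at 9.01 TPM against 9.0 to 11.85 in the others. These counts describe 1 library. Without it the log2 fold changes were -0.12 for Cxcl12, -0.19 for Kitl, 0.08 for Foxc1 and 0.22 for Ebf3, and none of the 4 was called (limma adjusted p from 0.367 to 0.593).

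**Figure D4:**
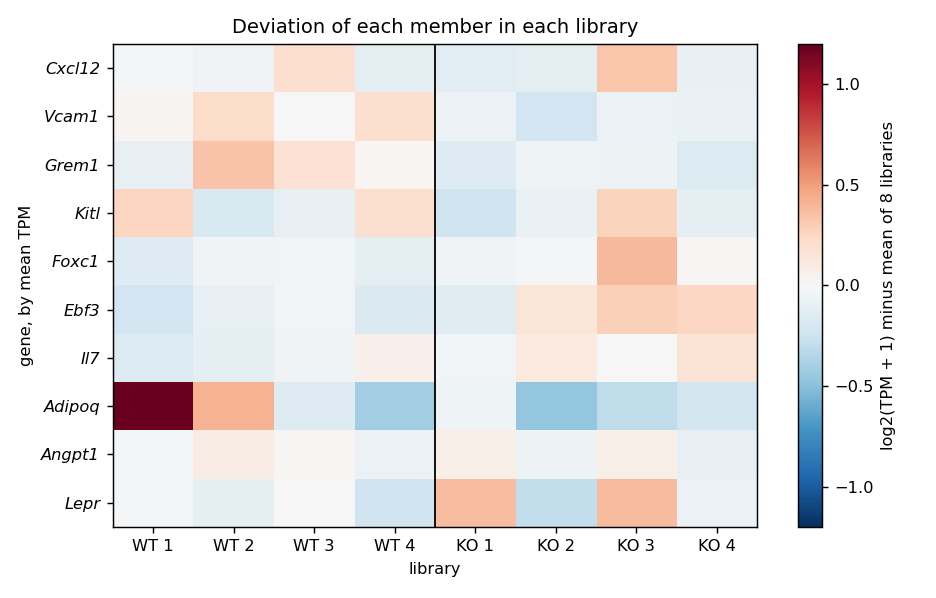
Deviation of log2(TPM + 1) from the mean of the 8 libraries (colour scale, red above and blue below) for each of the 10 genes (rows, by mean TPM) and library (columns; the line parts WT from KO). The strongest cell is Adipoq in WT replicate 1 at 1.18, and KO replicate 3 is red for Cxcl12, Kitl, Foxc1, Ebf3 and Lepr.

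Among 27 partners of these factors (receptors, related ligands and BMP targets), 19 were tested, 3 rose, 1 fell and 15 were not called. Cxcr4, the receptor of CXCL12, rose from 27.1 ± 2.02 to 35.1 ± 1.08 TPM (SD, n = 4; log2 fold change 0.37, limma adjusted p = 0.0138), with a p of 0.0582 without KO replicate 4. Itgb7, an integrin chain that pairs with the α4 chain to bind VCAM-1, rose from 22.4 ± 2.02 to 34.04 ± 1.68 TPM (0.59, adjusted p = 0.00418). Its partner Itga4 was 2.62 to 3.41 TPM over all libraries and was not called. The integrin chain Itgb1, in the same list, was far more abundant, at 408 to 482 TPM. It was not called either (0.10, limma adjusted p = 0.252). The BMP targets went apart: Id3 rose (0.31, adjusted p = 0.0489) and Id2 fell (-0.37, adjusted p = 0.0318). Id1 was lower in KO but not called (-0.29, limma adjusted p = 0.180). The Id2 call was lost in 5 of the 8 fits that left out 1 library (all KO replicates and WT replicate 2; p up to 0.0916) and the Id3 call in 7 (all but WT replicate 3; p up to 0.119); the Id3 call was also lost after median-of-ratios scaling (limma adjusted p = 0.0995).

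No receptor of the remaining ligands was called among those tested. Kit, the receptor for stem cell factor, was 0.73 to 1.71 TPM. Tek, the angiopoietin receptor, was below 0.4 TPM in all libraries and was not tested. Il7r, the IL-7 receptor, was 76.1 to 101 TPM and its shared chain Il2rg 55.2 to 64.0 TPM. The adiponectin receptors Adipor1 and Adipor2 had WT means of 94.5 and 31.7 TPM and KO means of 106 and 34.3. The median log2 fold change of the 19 tested partners was 0.16, beside 0.03 over all genes, and 21.1% of them were called, beside 5.61%. The 4 calls became 2 without WT replicate 2 or KO replicate 1, 2 or 3, and 1 without KO replicate 4.

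Of 20 other niche factors, 16 were tested, 3 rose and 2 fell (31.3% called), with a median log2 fold change of -0.05. Without Tnfsf11, which passed the filter only where it was high, 2 of 15 rose and 2 fell (26.7% called, a count made after seeing the data), with a median of -0.10. Postn (periostin, a matrix protein) rose from 213 ± 12.1 to 293 ± 22.7 TPM (SD, n = 4; 0.46, limma adjusted p = 0.00873), and held this call in all 8 fits that left out 1 library. Il15, a lymphoid cytokine, rose (0.62, adjusted p = 0.0282) and Igf1, a growth factor, fell (-0.34, adjusted p = 0.0271). Each of these calls was lost in 6 of the 8 fits, with p up to 0.0818 and 0.0768; Il15 kept its call without WT replicate 1 or KO replicate 1, and Igf1 without WT replicate 1 or 3. Tnfsf11, the osteoclast factor RANKL, rose from 0.588 to 1.24 TPM (0.49, limma adjusted p = 0.0279); it was not tested in the 4 fits that left out a KO library, and lost its call without WT replicate 4 (limma adjusted p = 0.0624). The second gene that fell, named after its values were seen, was Ptn (pleiotrophin; -0.50, limma adjusted p = 0.0284, lost in 6 of the 8 fits, all but WT replicates 1 and 3). With WT replicates 3 and 4 both left out, the calls of Il15, Ptn and Tnfsf11 were lost (adjusted p = 0.0911, 0.0663 and 0.0726). The 5 calls became 2 without WT replicate 2 or KO replicate 1, and 1 without WT replicate 4 or KO replicate 2, 3 or 4.

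Of 16 stromal transcription factors, 13 were tested, 2 rose and 0 fell (15.4% called), with a median log2 fold change of 0.06. These were Snai2 (0.36, limma adjusted p = 0.0236), a factor of mesenchymal cells, and Cebpa (0.32, adjusted p = 0.0453), which myeloid cells and adipocytes share. Snai2 lost its call in 4 of the 8 fits that left out 1 library (WT replicate 4 or KO replicates 1, 2 or 3; p up to 0.0687) and Cebpa in 7 (all but WT replicate 1; p up to 0.127). With WT replicates 3 and 4 both left out, 0 of the 13 were called.

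Of 18 marrow reticular markers outside the 10 genes, 16 were tested, 6 rose and 2 fell, with a median log2 fold change of 0.21. Pdgfrb, a receptor of pericytes and stroma, rose from 27.4 ± 1.34 to 37.3 ± 1.26 TPM (SD, n = 4; 0.43, limma adjusted p = 0.00402). Gpx3 (0.47, adjusted p = 0.00829), Mcam (0.61, adjusted p = 0.00942) and Gas6 (0.41, adjusted p = 0.0105) rose as well, and these 4 genes held their calls in all 8 fits that left out 1 library. The genes that fell, named after their values were seen, were Nes (nestin; -0.48, adjusted p = 0.0199) and Cp (ceruloplasmin; -0.59, adjusted p = 0.0418), which lost their calls in 4 (WT replicate 4 or KO replicates 1, 3 or 4) and 7 (all but WT replicate 3) of the 8 fits. The sum of the 18 markers was 1941 to 2379 TPM in WT and 2209 to 2320 in KO, so the groups overlapped. Most of it was Lpl, which macrophages also express, at 1079 to 1511 TPM in WT and 1135 to 1385 in KO. The overlap of the sum therefore does not speak for the other markers. With WT replicates 3 and 4 both left out, 4 rose and 1 fell, and the adjusted p of Gas6 was 0.0504. Without WT replicate 4, KO replicate 3 or KO replicate 4, 5 were called.

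Fibroblast markers rose in 8 of 19 tested genes and fell in 0 (42.1% called, median log2 fold change 0.20). Dcn was the only tested one with a negative fold change, and it was not called (-0.43, limma adjusted p = 0.277). Lum, below TPM 1 and not tested, had means of 0.348 TPM in WT and 0.22 in KO. Thy1, a surface protein of fibroblasts, rose from 3.11 ± 0.20 to 7.57 ± 0.837 TPM (SD, n = 4; 1.06, limma adjusted p = 0.000808), and Loxl1, Col5a2 and Fbln2, all of the extracellular matrix, rose by 0.42, 0.34 and 0.32. Without WT replicates 3 and 4 the count was 5 of 19; it was also 5 without WT replicate 4 or KO replicate 2, and 4 without KO replicate 4. Endothelial markers rose in 2 of 7 tested genes (28.6% called, beside 5.61% of all genes), Pecam1 (0.59, adjusted p = 0.0144) and Emcn (0.61, adjusted p = 0.0342). Vwf, in the same list, was lower in KO but not called (-0.30, limma adjusted p = 0.239). The remaining tested endothelial markers had positive fold changes and were not called. The Pecam1 p was 0.0617 without WT replicates 3 and 4, and Emcn lost its call in 6 of the 8 fits (all but WT replicates 2 and 3). The lists overlap in Kit, Tek, Lep, Pparg, Runx2 and Sp7, which stand in 2 lists each. Whether the amount of stromal cells had a part in the members' values was not tested.

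**Figure D5:**
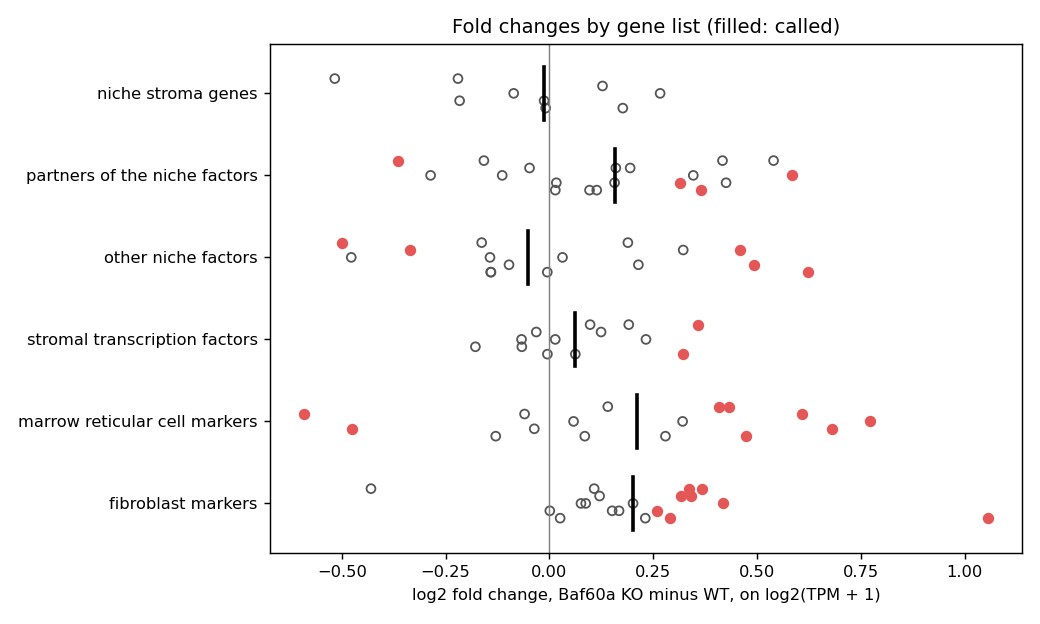
Log2 fold change (Baf60a KO minus WT on log2(TPM + 1), horizontal axis) of every tested gene in 6 gene lists; filled points were called at adjusted p under 0.05, open points were not, and vertical bars are list medians. The 9 niche stroma genes hold no filled point and have a median of -0.01, while 8 of 16 marrow reticular markers and 8 of 19 fibroblast markers are filled. Of all genes tested, 5.61% were called.

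Iron-recycling macrophage genes had 1 call in 8 tested (12.5%, beside 5.61% of all genes), Siglec1, a sialoadhesin of marrow macrophages, which fell from 17.0 ± 0.291 to 9.11 ± 0.408 TPM (SD, n = 4; log2 fold change -0.84, limma adjusted p = 0.000195). Of 10 macrophage markers 3 were called (30.0%, median log2 fold change 0.20): beside the fall of Lyz2 there were 2 rises, Cd68 (0.29, limma adjusted p = 0.0394) and Itgam (0.44, adjusted p = 0.0285), both lost with WT replicates 3 and 4 left out (adjusted p = 0.0868 and 0.0727). The Cd68 call was also lost in 7 of the 8 fits that left out 1 library (all but WT replicate 1) and the Itgam call in 6 (all but WT replicates 1 and 3). Osteoblast (2 tested), mast cell and progenitor (2), megakaryocyte (3), neutrophil (6) and erythroid (3) markers had 0 calls. These lists are too short for 0 calls to set them apart from the 5.61% of all genes tested. Their median log2 fold changes were, in this order, -0.001, 0.19, -0.50, -0.25 and -0.53. With the replicate block, and without WT replicate 3, 1 megakaryocyte marker was called as a fall. All 8 lymphoid markers were below TPM 1, with sums of 0.58 to 1.31 TPM in WT and 0.38 to 0.91 in KO, and none was tested.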

How the data were processed

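RNA was measured in 8 libraries, 4 per group, grouped and numbered from the sample titles. Per the labels' protocols, RNA was isolated on columns and sequenced as paired reads on an Illumina NovaSeq. The submitters' processing notes name mm10, Salmon 1.2.0 and bcl2fastq, with annotation and mapping options not given in the sources used here. Values deposited by the authors are TPM to 2 decimals, a unit read from the values, since each library summed to 1000000 within rounding. TPM keeps no read depth, so the depth of single libraries is unknown, and a large change in some transcripts moves all others.

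Identifiers were matched to GENCODE M21 (55240 of 55421). The 13933 genes above TPM 1 in 4 or more libraries were compared as log2(TPM + 1). The fit used limma 3.58.1 (R 4.3.3), trended variance and no term but group. Benjamini-Hochberg adjustment ran over all genes tested, and genes were called at adjusted p under 0.05. A table of counts would have been tested with a count model, which TPM do not allow. The steps were tested on simulated data.

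The members, the lists and the alternatives were chosen with earlier results of these data known. Named beside the members were Smarcd1 and, per list, up to 4 called genes with the smallest adjusted p or, with fewer than 2 called, the most abundant others; genes outside this rule are given as list members or said to be named after their values were seen. Alternatives covered the pseudocount, filters, scaling, trend, library weights, the replicate number as a block, and left-out libraries.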

Additional observations from a re-analysis of the deposited data

Results flagged for a closer look

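In 22 groups of 4 libraries (each of the 10 members, and Smarcd1, in WT and in Baf60a KO), 3 groups held a library far from the other 3, with a gap to the nearest that exceeded Dixon's 95% critical value as a share of the group's range. Chance alone marks about 1 in 20 groups. Cxcl12 was 290.2 TPM in KO replicate 3, against 210 to 217 in the other KO libraries (gap over range 0.908). Foxc1 was 9.59 TPM in the same library, against 6.88 to 7.17 (0.893). Vcam1 was 14.2 TPM in KO replicate 2, below the 15.8 to 16.0 of the other KO libraries (0.911). The fold changes without these libraries were -0.12 for Cxcl12, 0.08 for Foxc1 and -0.18 for Vcam1.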

How the results depend on the processing

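Of the 9 tested members, 0 were called in all alternatives but median-of-ratios scaling, where 1 (Vcam1) was; the count was 0 in each of the 8 fits that left out 1 library. Of 167 member fold changes under alternatives, 158 kept direction and side of the threshold, 8 reversed and 1 passed it. All 8 reversals were of fold changes near 0: Cxcl12 was 0.031 with WT replicates 3 and 4 both left out and -0.12 to 0.055 when 1 library was left out, and Angpt1 was -0.037 to 0.018 when 1 library was left out. Over all genes, 782 calls became 364 with no filter on low values, 372 with WT replicates 3 and 4 both left out, and 156 to 679 with 1 library left out. Higher and lower calls were 613 and 169, against 516 and 404 after median-of-ratios scaling, 440 and 254 after quantile normalization, 598 and 321 after rescaling over protein-coding genes, and 201 and 171 with both WT libraries left out. With the replicate block 209 genes and 0 members were called; same-numbered libraries did not deviate together (correlations -0.11 to 0.01), so the numbers were not taken as pairs. Among the genes named from the lists, Id2, Id3, Igf1, Il15, Ptn, Cebpa, Cp, Emcn, Cd68 and Itgam lost their calls with no filter on low values (limma adjusted p 0.0571 to 0.105), and Il15, Ptn, Tnfsf11, Cebpa, Cp, Nes, Mcam, Pecam1, Emcn and Cd68 with the replicate block (0.0507 to 0.125). Under a filter of mean TPM over 5, only 5 members were tested. TPM carries no counting error, so how depth limits the low values of Lepr and Angpt1 is unknown.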
